A study of Mus musculus with 6 samples.

Results

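The miR-30 family was followed, through its 5p and 3p arms, in exosomes shed by RAW 264.7 cells, a mouse macrophage line. The members are 9 mature miRNAs, chosen by name from the 1881 mouse miRNAs on the array. The 5p arms are mmu-miR-30a-5p, mmu-miR-30b-5p, mmu-miR-30c-5p, mmu-miR-30d-5p and mmu-miR-30e-5p, and the 3p arms are mmu-miR-30a-3p, mmu-miR-30e-3p, mmu-miR-30c-1-3p and mmu-miR-30c-2-3p. Exosomes, small extracellular vesicles with an RNA cargo, were taken from culture supernatant by size-exclusion chromatography. The 3 control samples (Con) are labelled as normal RAW 264.7 cells. The 3 LPS samples came from RAW 264.7 cells that received lipopolysaccharide (LPS), a TLR4 ligand from Gram-negative bacteria, at 2 µg/mL, with supernatant collected at 72 h. How long the control cells were cultured was not stated, so LPS and time in culture cannot be told apart. The labels do not describe replicates as separate cultures: p-values here measure only the spread between samples, which may be technical. Each sample was run on 1 one-colour Agilent array, and precision is limited by how few arrays there are.

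A miRNA hairpin is cut into a duplex of a 5p and a 3p arm, of which one is usually loaded into Argonaute as the guide and the other, the passenger, is mostly degraded. The 5p arms of the miR-30 family are its usual guides. They share a seed, the stretch near the 5′ end that pairs with target mRNAs, and are known to repress, among others, the autophagy protein Beclin 1 and the Notch ligand Dll4. The 3p arms differ more among themselves, and those of miR-30a and miR-30e are known to accumulate in many tissues.

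RefSeq sequences (GRCm38.p6) were matched by name for 7 of the 9 members. They are shown because the arms fall into 3 seed groups that the results follow. Each is written 5′ to 3′, with the seed, bases 2 to 8, in capitals.
miR-30a-5p: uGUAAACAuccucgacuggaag
miR-30c-5p: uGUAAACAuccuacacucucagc
miR-30e-5p: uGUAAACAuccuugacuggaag
miR-30a-3p: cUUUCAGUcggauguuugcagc
miR-30e-3p: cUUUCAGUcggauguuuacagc
miR-30c-1-3p: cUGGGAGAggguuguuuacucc
miR-30c-2-3p: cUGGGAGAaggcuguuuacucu

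miR-30a-5p, 30c-5p and 30e-5p carried the seed GUAAACA, 30a-3p and 30e-3p the seed UUUCAGU, and both 30c 3p arms the seed UGGGAGA. miR-30a-5p and 30e-5p differed by 1 base (C13U, counted from 1 at the 5′ end, with the miR-30a base first). miR-30a-3p and 30e-3p also differed by 1 base (G18A). The 30c 3p arms differed by 3 bases, G9A, U12C and C22U, with the 30c-1 base first. The mature miR-30c-5p is the same from both of its hairpins, so its 2 loci cannot be told apart. Both hairpins are shown to place the arms, in capitals, from which the arm comparison is drawn.
Mir30c-1: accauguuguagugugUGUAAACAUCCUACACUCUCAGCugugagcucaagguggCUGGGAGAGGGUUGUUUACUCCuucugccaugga
Mir30c-2: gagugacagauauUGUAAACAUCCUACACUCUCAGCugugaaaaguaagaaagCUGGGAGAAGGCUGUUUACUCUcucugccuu

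The genes lie in 3 pairs. By the files' mm9 coordinates, the brightest miR-30a-5p probe lies on the plus strand at chr1:23279119-23279134, and that of miR-30c-2-3p on the plus strand at chr1:23298597-23298614, 19.5 kb away. The probe of miR-30c-1-3p lies on the minus strand at chr4:120442198-120442215, 3.04 kb from the brightest probe of miR-30e-5p. The mouse gene table (GRCm38.p6) places Mir30c-1 and Mir30e within Nfyc, a protein-coding gene for a subunit of a CCAAT-binding transcription factor. The probe of miR-30d-5p lies on the minus strand at chr15:68172790-68172802, 3.79 kb from that of miR-30b-5p. Mir30a, Mir30c-2, Mir30b and Mir30d lie within no other gene of that table except miRNA genes.

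The LPS arrays were brighter than the control arrays. Over the 198 miRNAs that every array detected, the unscaled 75th percentile averaged 477 ± 41.0 in control and 2229 ± 180 in LPS, while the geometric mean of the spiked-in RNAs averaged 2707 ± 83.9 and 2377 ± 181 (SD, n = 3 each). The cause was not tested, and more vesicles and more miRNA per vesicle, among others, cannot be told apart here. Each array was divided by its own percentile, and log2 values below are on that scale unless called unscaled. The control arrays detected 213 to 228 miRNAs and the LPS arrays 412 to 446. Of 6 myeloid marker miRNAs, 5 were detected on every control array and 6 on every LPS array. Of 12 liver, erythroid, muscle, neural and epithelial markers, 0 were detected in control and 2 in LPS, miR-192-5p and miR-200c-3p.

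In exosomes of LPS-treated cells the signal read as the 3p arms of both 30c hairpins was lower, by 2.86 (30c-1-3p) and 3.36 (30c-2-3p) on the log2 scale. Whether it comes from the named miRNAs was not tested. The signal of the guide arm 30d-5p was higher by 1.70. These calls, and that of 30b-5p as higher, kept their direction under every fitted alternative that gave a value. The unscaled gene totals of the 30c 3p arms, which were not fitted, did not separate the groups. 30a-5p, 30c-5p and 30e-5p were also called higher, but 30a-5p lost its call with the gene total signal, and 30c-5p and 30e-5p turned lower with normexp background correction. Of the 9 members 8 were tested, 6 called higher and 2 lower, in a fit where 92.2% of the 412 tested miRNAs were called, 65.5% as higher and 26.7% as lower: a call alone thus sets no member apart. The median change of all tested miRNAs was 0.85, so 30a-5p and 30e-5p lay near it. 30b-5p, 30c-5p and 30a-3p were detected on the LPS arrays alone, so they entered the test through the group in which they were high, and their calls are no support for the direction of the family. The miRNAs detected on all 6 arrays were called higher in 58.1% and lower in 38.4% of cases, with a median change of 0.77 on the log2 scale. The 5 members among them were 30a-5p, 30d-5p, 30e-5p, 30c-1-3p and 30c-2-3p.

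**Figure D1:**
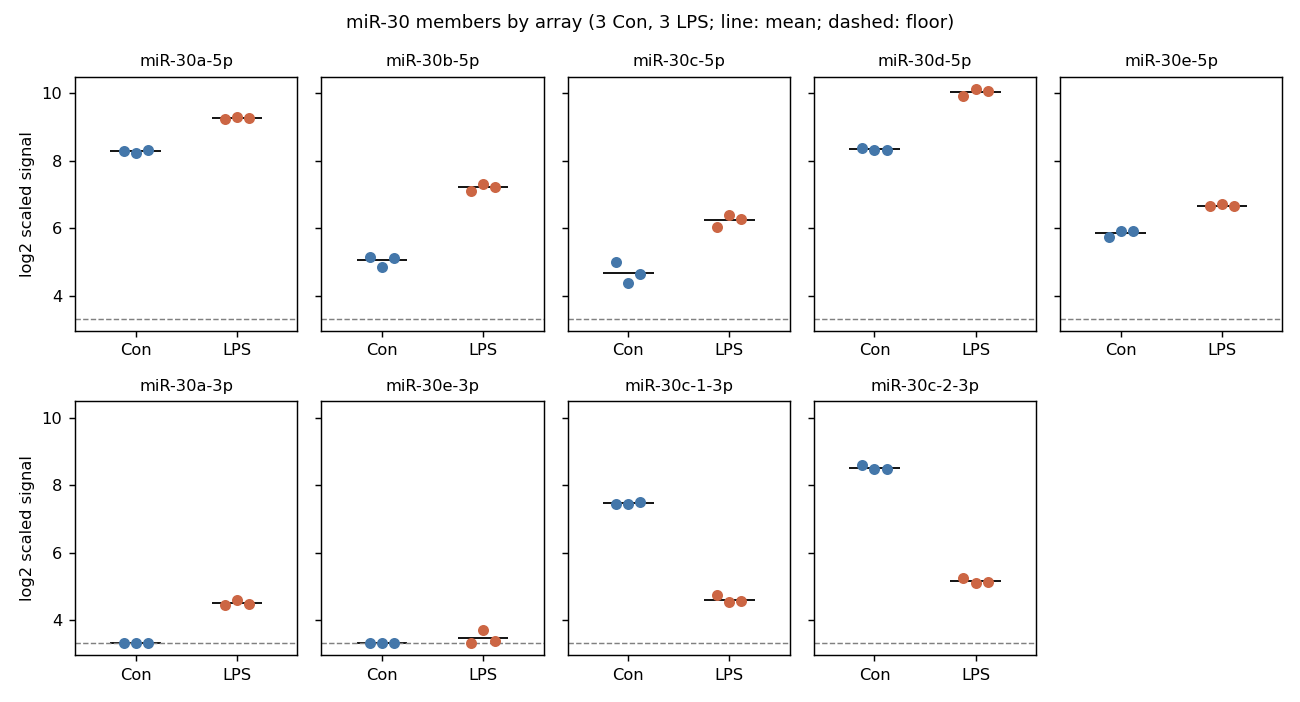
Log2 scaled signal of the 9 miR-30 members on each of 3 control (Con) and 3 LPS arrays; points are arrays, lines are group means, and the dashed line is the floor of 3.31. 30a-5p and 30d-5p sit higher in LPS, while 30c-1-3p falls from a mean of 7.47 to 4.61 and 30c-2-3p from 8.52 to 5.16.

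miR-30d-5p, a guide arm from the chromosome 15 pair, was well above background on every array. Its log2 scaled signal was 8.39, 8.31 and 8.32 in control and 9.92, 10.14 and 10.06 in LPS. The groups did not overlap, as for 93.4% of all tested miRNAs. It rose by 1.70 (SE 0.07, 3.25-fold), with an adjusted p of 5.43e-07 in limma. Before scaling the control arrays averaged 150 ± 8.46 and the LPS arrays 2291 ± 346 (SD, n = 3). Of the 198 miRNAs detected on all arrays, 36 rose more.

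miR-30a-5p, the guide arm of the chromosome 1 gene, changed less. Its log2 scaled signal was 8.30, 8.23 and 8.30 in control and 9.24, 9.31 and 9.26 in LPS. It rose by 0.99 (SE 0.04, 1.99-fold, adjusted p = 8.66e-07 in limma), near the median of those detected on all arrays. The groups did not overlap. Its call ended with the gene total signal in the files (0.42, adjusted p = 0.60), where the control arrays read 31.0, 34.6 and 180, the third far above the others. Its 2 longer probes, which were above background on all arrays, changed by 0.99 and 0.77.

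The 2 guide arms well above background on every array differed in the size of their rise. The log2 difference of 30d-5p over 30a-5p, which does not depend on array scaling, was 0.09, 0.08 and 0.02 on the control arrays and 0.68, 0.83 and 0.80 on the LPS arrays. It changed by 0.71, with a two-sided exact permutation p of 0.1, the smallest that 3 against 3 samples allow (0.1 after adjustment over 2 such pairs). The probes of both differ by 1 of the 14 letters they share (A11G, counted from the probe's first letter, 30a-5p first), so signal from one member at the other's probe was not separated.

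The other guide arms were dim in control, and their rises are lower bounds. A bound sets the LPS mean against, per control array, the higher of the probe's own signal and the lowest signal well above background. It holds only for the processed signal and the scaling used. miR-30b-5p, the chromosome 15 neighbour of 30d, stood at 5.16, 4.86 and 5.11 in control and 7.12, 7.31 and 7.21 in LPS. Its probe was well above background on 0 of 3 control arrays and 3 of 3 LPS arrays. LPS was thus at least 2.15-fold higher with the percentile scaling. The bound was 1.72-fold with scaling to the median and 11.4-fold with the spiked-in RNAs. The bounds were not themselves tested, and p-values here belong to the fitted changes, which use the dim control signal. Its fitted change was 2.17 (adjusted p = 1.03e-06 in limma) and fell to 0.17 with normexp background correction, still called.

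miR-30c-5p, the guide made from both 30c hairpins, stood at 5.01, 4.36 and 4.65 in control and 6.03, 6.38 and 6.27 in LPS. LPS was at least 1.08-fold higher, but the bound was 0.87 with scaling to the median, so that no fold can be read there. Its fitted change was 1.55 (adjusted p = 0.000176 in limma). With normexp, under which the median of all tested miRNAs was −0.58, it was −0.50. It was 0.95 without LPS replicate 1 and 0.99 without LPS replicate 3, where the recomputed floor was 36.3 and 31.5 against 9.89. It was 0.61 within the first slide row, where all 3 control values lay at a floor of 29.0. miR-30e-5p, whose hairpin lies in Nfyc, stood at 5.75, 5.93 and 5.92 in control and 6.65, 6.70 and 6.65 in LPS. It counts as detected on every array, but its probe was well above background on 0 of 3 control arrays. LPS was at least 1.47-fold higher with the percentile scaling, 1.18-fold with the median and 7.82-fold with the spiked-in RNAs. Its fitted change of 0.80 (adjusted p = 1.89e-05 in limma) turned to −0.43 with normexp and −2.002 with the gene total signal. The brightest probes of 30a-5p and 30e-5p differ by 1 of 17 letters (G10A, 30a-5p first). Unscaled, that of 30e-5p averaged 27.2 in control and 220 in LPS, and that of 30a-5p 144 and 1338. Signal from 30a-5p at the 30e-5p probe was not separated. For 30b-5p, 30c-5p and 30e-5p the groups did not overlap, as for 93.4% of all tested miRNAs, but the direction of 30c-5p and 30e-5p turned with the background correction.

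miR-30a-3p and miR-30e-3p, the passenger arms with the seed UUUCAGU, gave signal in LPS alone. The unscaled signal of 30a-3p was 1.74, 2.60 and 4.24 in control and 42.8, 54.7 and 50.3 in LPS. After scaling all 3 control values lay under the floor of 9.89 (3.31 on the log2 scale), and the bound was 0.33, so no fold is given and its call as higher (1.20) has no readable direction on this scale. Without scaling it was at least 1.53-fold higher in LPS, and with the spiked-in RNAs at least 1.75-fold. Its probe was well above background on 3 of 3 LPS arrays and 0 of 3 control arrays. The unscaled signal of 30e-3p was 1.38, 1.03 and 0.13 in control and 19.1, 29.5 and 23.5 in LPS. It was detected on 2 of 3 LPS arrays, well above background on none, and so was not tested. Among the family arms outside the members, 30b-3p, 30d-3p and miR-30f were detected on 0 of 6 arrays. Their unscaled signals averaged 11.9, 6.85 and −3.83 in control and 11.9, 7.60 and −6.17 in LPS.

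miR-30c-2-3p is a passenger arm from chromosome 1. Its log2 scaled signal was 8.60, 8.48 and 8.47 in control and 5.26, 5.09 and 5.12 in LPS. It fell by 3.36 on the log2 scale (SE 0.06, 10.3-fold lower, adjusted p = 2.82e-08 in limma), and of the 198 miRNAs detected on all arrays 10 fell more. miR-30c-1-3p, its paralogue from the Nfyc hairpin, stood at 7.45, 7.45 and 7.51 in control and 4.73, 4.52 and 4.56 in LPS. It fell by 2.86 (SE 0.06, 7.27-fold lower, adjusted p = 5.93e-08 in limma). The order of both turned with the mean over probes, which gave −3.68 for 30c-1-3p and −3.59 for 30c-2-3p. Both were well above background on all 6 arrays, and the log2 difference of 30c-1-3p over 30c-2-3p moved from −1.05 ± 0.10 to −0.55 ± 0.02 (SD, n = 3), a change of 0.50 (two-sided exact permutation p = 0.1; 0.1 adjusted over 2 pairs).

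In the processed probe signal, the fall of the 30c 3p arms was also present without any scaling, where most miRNAs rose. Unscaled, 30c-2-3p read 163, 177 and 169 in control and 75.2, 77.8 and 78.2 in LPS, and 30c-1-3p read 73.2, 86.5 and 86.6 in control and 52.3, 52.3 and 53.2 in LPS. In both cases the groups did not overlap, as on the scaled values for 93.4% of all tested miRNAs. In the unscaled fit 30c-2-3p changed by −1.14 (adjusted p = 1.27e-07 in limma) and 30c-1-3p by −0.64 (adjusted p = 5.25e-05), while 9.47% of the tested miRNAs were called lower and 88.3% higher. With scaling to the spiked-in RNAs the changes were −0.95 and −0.45, both still called, against 9.22% of all tested called lower and 89.8% higher. With the scaled gene total signal the changes were −2.17 and −1.82 (adjusted p = 0.0046 and 0.0320 in limma). Unscaled, that total read 80.2, 89.5 and 233 in control and 116, 151 and 139 in LPS for 30c-2-3p. For 30c-1-3p it read 45.6, 52.0 and 197 in control and 94.8, 128 and 117 in LPS. In both, the unscaled LPS totals lay above control 1 and 2 and below control 3. In the authors' value table the changes were −2.50 and −1.83. The first slide row held all 3 control arrays and LPS 1, and the second row held LPS 2 and LPS 3. With the row as a block, which here equals LPS 1 against the controls, the changes were −3.26 and −2.73. A fit on the first row alone gave −3.06 and −2.01, where LPS 1 lay at a floor of 29.0 for both, so these falls are lower limits. For 30a-5p, 30b-5p, 30d-5p and 30e-5p the blocked changes were 0.96, 2.07, 1.58 and 0.78, and for 30c-5p 1.36.

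**Figure D2:**
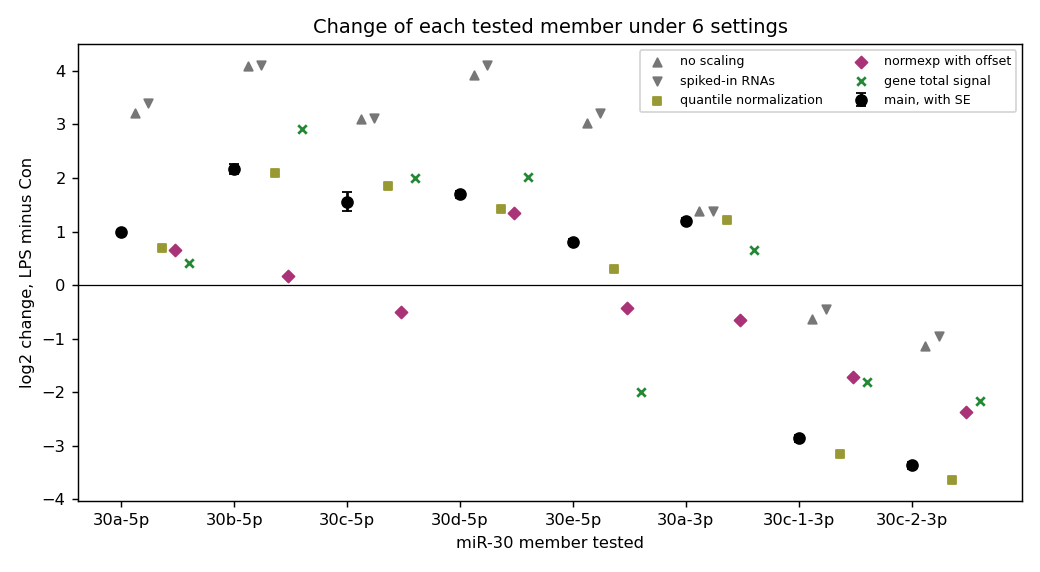
Log2 change (LPS minus Con) of the 8 tested members: black points with SE are the values as reported, and the other marks are 5 alternatives in scaling, background correction or signal. The 30c 3p arms lie below 0 under all 6, 30a-5p, 30b-5p and 30d-5p above 0 under all 6, while 30c-5p, 30e-5p and 30a-3p fall below 0 with normexp and 30e-5p also with the gene total signal.

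The balance of 5p over 3p signal shifted towards 5p in both 30c hairpins. For each of 43 hairpins with both arms tested, the log2 difference of 5p over 3p was taken within each array and compared between groups. In this fit 83.7% of the hairpins were called, 44.2% with the 5p arm gaining and 39.5% with the 3p arm gaining, with a median change of 0.16. The difference of 30c-5p over 30c-2-3p was −3.59, −4.12 and −3.82 on the control arrays and 0.77, 1.28 and 1.16 on the LPS arrays, a change of 4.92 (SE 0.18, adjusted p = 1.06e-06 in limma). That of 30c-5p over 30c-1-3p was −2.44, −3.09 and −2.85 in control and 1.30, 1.85 and 1.71 in LPS, a change of 4.41 (SE 0.21, adjusted p = 3.22e-06).

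The groups did not overlap in either pair, but neither did they for hairpins with small changes, such as miR-183 (0.41) and miR-30a (−0.20). Probes differ in brightness, so the sign of a difference is no ratio of molecules, and only its change is read. Both changes share the 5p arm, so they are not separate observations of it. Because 30c-5p was not well above background in control and entered through LPS alone, the readable part is a bound. With this processed signal and the 3p changes taken as fitted, the log2 differences changed by at least 3.48 and at least 2.98. They therefore have no rank among the hairpins: let-7d, with both arms detected on all 6 arrays, changed by 3.64. With normexp the changes were 1.86 and 1.21, below those bounds but still called. With the row as a block they were 4.62 and 4.09. In the first row alone they were 3.67 and 2.62, with both the 30c-5p controls and the 3p LPS value at the floor. The fit for miR-30a gave −0.20 (adjusted p = 0.0226 in limma), but 30a-3p lay at the floor on every control array, so the direction of that pair is not readable. The pair of miR-30e was not tested, since 30e-3p was not. miR-30b and miR-30d had no detected 3p arm.

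**Figure D3:**
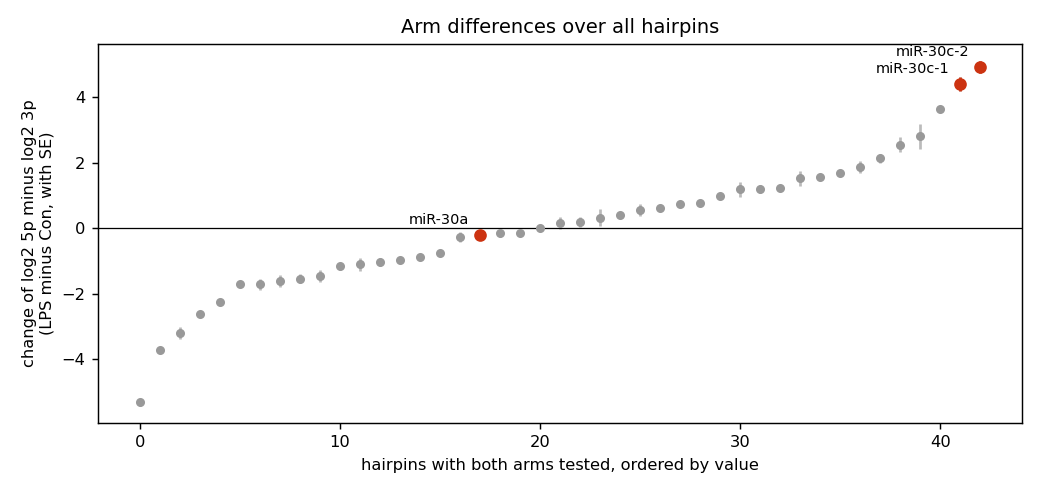
Change of the log2 difference of 5p over 3p (LPS minus Con, with SE) for the 43 hairpins with both arms tested, ordered by value, with the miR-30 hairpins in red. With the processed signal, the fitted values of miR-30c-2 (4.92) and miR-30c-1 (4.41) can be read only as at least 3.48 and 2.98. With normexp they were 1.86 and 1.21. The value of miR-30a (−0.20) has no readable direction, since 30a-3p is at the floor in control.

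The members are read by probes of several lengths, which did not all rise above background. A miRNA is read by several probes that start at its 3′ end and reach different distances towards the seed. They are shown, 5′ to 3′, because the values below are given by probe; capitals mark the letters TCTC. The names give the probe length.
30c-1-3p, 16 letters: ggagtaaacaaccctc
30c-1-3p, 17 letters: ggagtaaacaaccctct
30c-1-3p, 18 letters: ggagtaaacaacccTCTC
30c-1-3p, 19 letters: ggagtaaacaacccTCTCc
30c-2-3p, 18 letters: agagtaaacagcctTCTC
30c-2-3p, 19 letters: agagtaaacagcctTCTCc
30a-5p, 17 letters: cttccagtcgaggatgt
30d-5p, 14 letters: cttccagtcgggga

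In control, the 16 and 17 letter probes of 30c-1-3p read 3.15 ± 1.29 and 2.33 ± 0.50 unscaled, and the 18 and 19 letter probes read 81.0 ± 7.08 and 82.1 ± 7.72 (SD, n = 3). In LPS the same 4 probes read 1.64 ± 2.41, 0.64 ± 1.41, 15.1 ± 2.94 and 52.6 ± 0.55. The 18 letter probe holds TCTC and the 17 letter probe does not. The 18 letter probe was well above background on 3 of 3 control arrays and 0 of 3 LPS arrays. The 19 letter probe was so on all 6, with a ratio of control over LPS of 1.56. For 30c-2-3p the 18 letter probe read 13.8 ± 0.54 in control and 4.42 ± 0.89 in LPS, and the 19 letter probe 170 ± 7.06 and 77.1 ± 1.63 (SD, n = 3). The 18 letter probe was well above background on 0 of 6 arrays and gives no fold, and the ratio of control over LPS at 19 letters was 2.20.

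The probes of 30a-5p and 30d-5p were brighter in LPS at each length. For 30a-5p the 15, 16 and 17 letter probes read 22.5 ± 3.83, 67.2 ± 4.27 and 144 ± 10.2 in control and 173 ± 29.0, 538 ± 46.8 and 1338 ± 135 in LPS (SD, n = 3). The 15 letter probe was well above background on 0 of 3 control arrays, and the ratio of LPS over control at 17 letters was 9.32. For 30d-5p the 13 and 14 letter probes had ratios of 15.4 and 15.3.

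**Figure D4:**
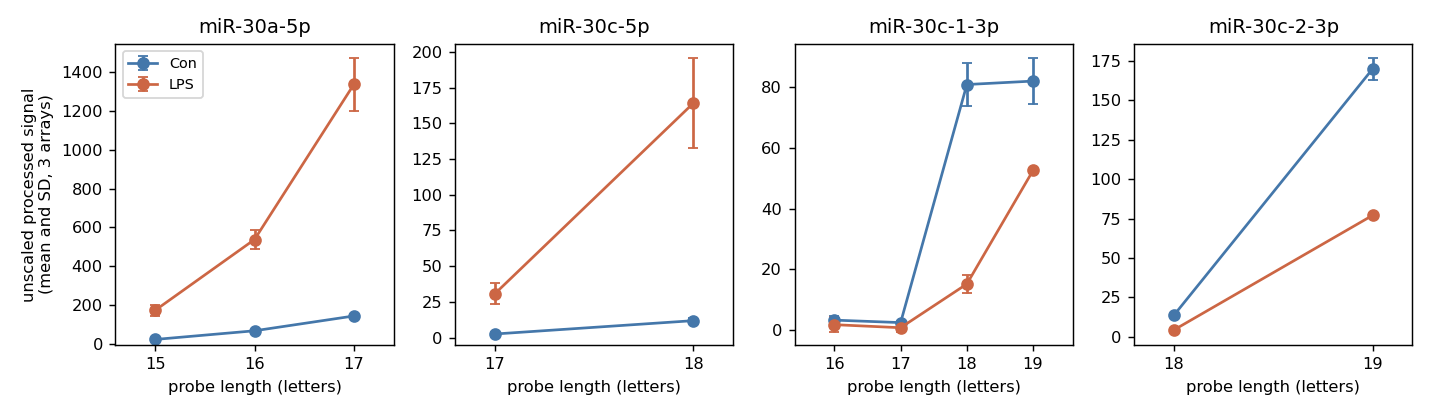
Unscaled processed signal (mean and SD over 3 arrays) against probe length for the probes of 4 members, control in blue and LPS in orange; the vertical axes are linear and differ between panels. 30a-5p and 30c-5p are brighter in LPS at every length, while 30c-1-3p reads under 4 at 16 and 17 letters in both groups and 81.0 at 18 letters in control.

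The letters TCTC, searched in the probes as written, also marked other miRNAs that were lower in LPS. They occur in 6.91% of all 4415 probes and in 25.3% of the brightest probes of the 198 miRNAs detected on all arrays. Of the 50 such miRNAs with TCTC, 15 were called higher and 33 lower, with a median change of −1.92; of the 148 without it, 100 were called higher and 43 lower, with a median of 0.90. Both 30c 3p arms are among the 50, and 30a-5p, 30d-5p and 30e-5p are among the 148. The reverse complement GAGA occurred in 8.88% of all probes and in 6 of the 198 brightest probes. The split was seen after the values were known, and whether these letters have a part in the fall of the 30c 3p arms was not tested. Whether the signal at those probes comes from the named miRNAs or from other RNA was not tested either.

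**Figure D5:**
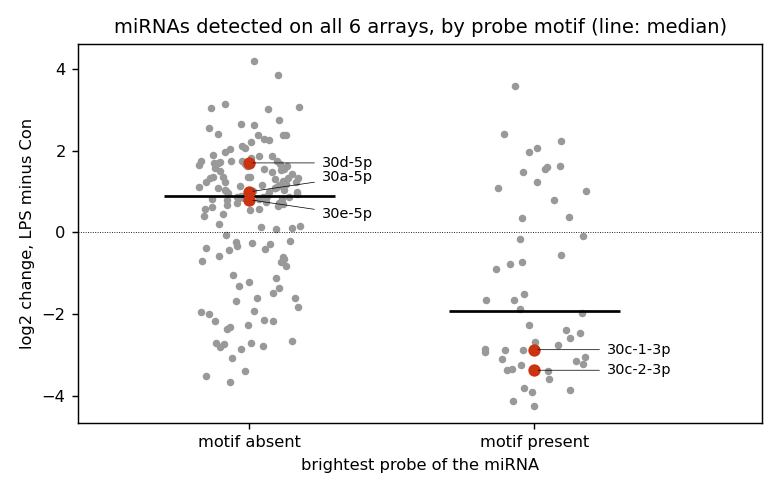
Log2 change (LPS minus Con) of the 198 miRNAs detected on all 6 arrays, split by whether the brightest probe holds the letters TCTC; points are miRNAs, lines are medians, and miR-30 members are in red with a thin leader to their names. The 148 without the letters have a median of 0.90, the 50 with them a median of −1.92, and both 30c 3p arms lie in the lower part of the second group.

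The miRNAs whose profiles over the 6 arrays lay nearest to the brightest member of each arm were named by the root mean square distance between centred log2 values. For 30d-5p they were miR-23a-3p (0.03, a change of 1.67), miR-23b-3p (0.04, 1.71) and miR-8117 (0.05, 1.72). For 30c-2-3p they were miR-6961-5p (0.05, a change of −3.38), miR-7084-5p (0.06, −3.38) and miR-6960-5p (0.07, −3.33). Other miRNAs on the array with a member's seed were miR-384-5p, which has GUAAACA, and miR-6958-5p, which has UGGGAGA. Neither was tested, as neither was detected on every array of a group.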

How the data were processed

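The authors deposited, per the file headers, 1 Agilent Feature Extraction 10.7.1.1 table per array with linear intensity values, with spatial detrending on and the separate background correction off; the submitters' processing notes name version 9.1. A log2 value table that the authors deposited, with column medians of 2.73 to 2.74 and a normalization and centring that stay unknown, served as an alternative. The labels' protocols describe cRNA labelling with Cy3.

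Spots of a probe, less outlier spots, were averaged on their processed signal, and the brightest probe stood for its miRNA. Signals were divided by the array's 75th percentile, taken over miRNAs that all arrays detected, and floored at 9.89, the middle of the arrays' lowest scaled signals among detected miRNAs; the floor is recomputed in each alternative. miRNAs detected on every array of at least 1 group (412) were fitted with limma 3.58.1 in R 4.3.3, with Benjamini-Hochberg adjustment at 0.05; the arm fit used the same test over 43 hairpins. A probe counts as well above background where at least 0.5 of its spots are flagged so. The fits were tested on simulated data. The members and lists were chosen with earlier results of these data known. Named miRNAs are the members, the other family arms, up to 8 miRNAs sharing a seed, and the 3 nearest profiles of 1 member per arm. The alternatives cover scaling, background correction, signal, filter, detection, floor, variance, blocks and left-out replicates. No replicates held identical values. No per-sample columns were left unused.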

Additional observations from a re-analysis of the deposited data

How the results depend on the processing

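30d-5p, 30c-1-3p and 30c-2-3p kept their direction and their call under every fitted alternative. Over these, 30d-5p ranged from 1.35 to 4.11, 30c-2-3p from −3.68 to −0.95 and 30c-1-3p from −3.68 to −0.45. 30b-5p and the arm difference of both 30c hairpins also kept theirs where they had a value. That is no support for their direction, since 30b-5p and 30c-5p entered the test through LPS alone. With the mean over probes 30c-1-3p (−3.68) fell more than 30c-2-3p (−3.59). With normexp 3 members were called higher and 5 lower; against a median of −0.58 over all tested miRNAs, of which 113 were called higher and 284 lower, 30c-5p was at −0.50, 30e-5p at −0.43 and 30a-3p at −0.65. With the gene total signal 30e-5p was at −2.002, 30a-5p at 0.42 (no longer called). The median of all tested was 0.59 to 2.15 over 5 other scalings, with 251 to 370 called higher and 38 to 127 lower. Over miRNAs detected on all 6 arrays only, 3 members were called higher, since the rest were not tested, and no miR-30 hairpin could be compared.

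The arm difference of miR-30a, which rests on the floor, came to 0.76 when the percentile ran over the whole array, to 1.83 unscaled, to 2.02 by spiked-in RNAs, 1.30 with normexp and 0.80 with a floor 2 times as high; it was no longer called with the gene total signal (−0.24) or the slide row as block (−0.18). Leaving out 1 replicate at a time gave −0.29 to −0.16 for it. 30a-3p, and with it this pair, had no value where it lay at the floor on all arrays: with well above background as detection, within the first slide row, and without LPS replicate 1 or 3. Leaving out 1 replicate gave 5 to 6 members called higher and 2 lower, 30c-5p from 0.95 to 1.63, and 30c-1-3p from −2.96 to −2.09. The values 0.95 and −2.09 came without LPS replicate 1, where the recomputed floor was 36.3 against 9.89. At that floor the fall of 30c-1-3p is a lower limit.

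With the replicate number as a block, 6 members were called higher and 2 lower, with 30c-2-3p at −3.36, and the block changed no call. The deviations of same-numbered samples correlated at −0.40, −0.22 and −0.28, and those of differently numbered samples at −0.32 to 0.43. With so few samples these values cannot show whether same-numbered samples share more than a number. All arrays in the second slide row were LPS arrays. The feature size fraction that enters the gene total was the default 0.6 on the control arrays and 0.812 to 0.829 on the LPS arrays. Signal over background limits 30b-5p, 30c-5p, 30e-5p and 30a-3p in control.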
